A study of Mus musculus with 96 samples.

Results

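The mouse proteasome genes were taken as the 49 gene symbols of the count table that consist of Psm, a letter from a to g, a number and an optional final letter, out of 36935 symbols in all. They were read in 5 main groups, 8 core alpha genes (Psma), 11 core beta genes (Psmb), 6 ATPase genes (Psmc), 8 genes of the lid among the Psmd genes and 5 activator genes (Psme), beside 3 other base genes (Psmd1, Psmd2, Psmd4), 3 base assembly chaperones (Psmd5, Psmd9, Psmd10), the inhibitor Psmf1 and 4 core assembly chaperones (Psmg). The libraries were made from single metaphase II (MII) oocytes, which are ovulated eggs arrested before fertilisation, and from single blastomeres of 2-cell embryos, in a mouse line with the variant P620A of Padi6, a gene of the oocyte's cytoplasmic lattices. By label, 22 libraries were 2-cell blastomeres with the variant on the maternal allele (Padi6MatP620A/+), 22 were wild-type 2-cell blastomeres (Padi6+/+), 22 were oocytes homozygous for the variant (Padi6P620A/P620A), 22 were wild-type oocytes (Padi6+/+) and 8 were negative controls. Eggs came from superovulated females, cumulus cells were removed with hyaluronidase, the 2-cell embryos were made by in vitro fertilisation and stripped of zona and polar body, and only polyadenylated RNA was captured. The labels name no animal, so how many females stand behind a group is unknown.

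The proteasome is the protease that degrades ubiquitin-tagged proteins. Its barrel-shaped core particle is built of outer alpha rings, which gate the entrance, and inner beta rings, of which Psmb5, Psmb6 and Psmb7 carry the constitutive active sites. The regulatory particle caps the core: a ring of ATPases and other base subunits unfolds substrates, and the lid removes ubiquitin through Psmd14. Other caps, the activators, open the core without ubiquitin. Oocytes store maternal mRNA, much of which is cleared after fertilisation, while the 2-cell embryo of the mouse starts large-scale transcription of its own genome.

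The comparison set 2-cell-like against oocyte-like libraries, as read from RNA and not from the stage labels. A library was used if it held 100000 counts or more in 4000 genes or more, which 79 of 96 libraries did. Libraries with Mos, the kinase that holds the MII arrest, at 100 CPM (counts per 1000000) or more were called oocyte-like (39 libraries). Those below it with at least 1 count of Zfp352, a gene switched on in the 2-cell embryo, were called 2-cell-like (39 libraries), and 1 library fitted neither rule. Mos reached at most 63.3 and 36.0 CPM in the 2-cell-like libraries nearest the limit and at least 200.6 and 476 CPM in the oocyte-like ones nearest it. Zfp352 had 1 to 1174 counts (median 307) in 2-cell-like libraries and 0 in each oocyte-like one. Libraries 29, 48 and 41 lay nearest that limit, with 1, 3 and 5 counts of Zfp352. The classes run across the labels. Of the 2-cell-like libraries, 19 were labelled mutant oocyte, 7 wild-type oocyte, 11 mutant 2-cell, 0 wild-type 2-cell and 2 negative control. The oocyte-like libraries were labelled mutant oocyte in 0 cases, wild-type oocyte in 12, mutant 2-cell in 9, wild-type 2-cell in 14 and negative control in 4. The stage labels and the RNA thus go against each other in many libraries, and the genotype labels could not be checked in the same way.

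The 2-cell-like libraries held 503644 to 3185910 counts (median 1608300) and a median of 10370 genes, against 162539 to 5762563 counts (median 3235840) and a median of 13671 genes in the oocyte-like libraries. Oocyte markers other than Mos took a median share of 0.759% of counts in 2-cell-like and 3.72% in oocyte-like libraries, and 2-cell markers other than Zfp352 took 0.0720% and 0.000117%. Summed over 17 markers of cumulus and granulosa cells, the follicle cells around the egg, the share was 0% to 0.0162% in 2-cell-like libraries, where Hsd17b1, Thbs1 and Ptx3 had no count. In oocyte-like libraries it was 0.00486% to 1.02%. It reached 0.1% in 0 of 39 2-cell-like and 11 of 39 oocyte-like libraries, called granulosa-rich here, and the other 28 oocyte-like libraries are called granulosa-poor. Has2 and Amh, both of this marker list, went the other way. Over all counts of a class, Has2 was at 2.39 CPM in 2-cell-like against 0.456 CPM in oocyte-like libraries, and Amh at 2.65 against 0.0268 CPM. They had a count in 7 and 5 of the 39 2-cell-like libraries. By label each library is 1 cell, except that the 2 2-cell-like and 4 oocyte-like libraries labelled negative control name no cell. No animal is named, so each class counts as 1 sample and no p-value is given. Levels are pooled CPM, the counts summed over a class divided by its summed totals, and the intervals of ratios cover counting error only, since the protocols name no molecular identifiers and PCR copies of 1 molecule count as separate reads. CPM is a share of a library, not an amount per cell.

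Of the 49 proteasome genes, 43 were compared, with at least 10 CPM in 1 of the classes and a count in at least 50% of the libraries of the higher class. Psma8, Psmb9, Psmb11, Psme2b, Psmg2 and Psmg4 were not. In the 2-cell-like pool 22 of 43 were lower by 2-fold or more and 2 of 43 higher by as much, while of all 9677 genes compared 27.8% were that much lower and 20.9% that much higher. A gene under 10 CPM in 1 class passes this filter only through the other, so the filter fixes its direction. Among the 22, Psmb5, Psmb8, Psmb10, Psme1, Psme2 and Psmg3 were under 10 CPM in the 2-cell-like pool. All genes passed the same filter. The median log2 ratio was -1.03 over the proteasome genes and -0.078 over all genes. Middle ranges of single libraries (lower to upper quartile) lay apart for 13 proteasome genes in the lower direction and 2 in the higher, beside 22.5% and 9.53% of all genes. The summed level of all 49 genes was 4217 CPM in the 2-cell-like pool against 6532 CPM in the oocyte-like pool, 1.55-fold lower. Over single libraries that sum ranged from 2608 to 6873 CPM (median 4050.1) in 2-cell-like libraries and from 3849 to 10644 CPM (median 6285) in oocyte-like libraries, and the classes overlapped. Without Psma2 and Psma7 the sums lay closer, at 3920 CPM in the 2-cell-like pool against 4436 CPM in the oocyte-like pool, and the direction then turned without the granulosa-rich libraries, whose removal left 3838 CPM in the oocyte-like pool.

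The granulosa markers moved with this result. Without the 11 granulosa-rich libraries, 11 of 39 proteasome genes compared were at least 2-fold lower and 5 at least 2-fold higher (21.9% and 26.1% of all genes), and the median log2 ratio was -0.18, against 0.14 over all genes. Of the 22 lower genes, 12 were also at least 2-fold lower without those libraries (Psma1, Psma2, Psma4, Psma7, Psmb5, Psmb8, Psmc4, Psmd1, Psmd11, Psmd12, Psme2 and Psmg3), though Psmb8 then no longer passes the 10 CPM filter, and the other 10 were not (Psma6, Psmb1, Psmb4, Psmb10, Psmc1, Psmc2, Psmc5, Psmd13, Psmd14 and Psme1). Within the oocyte-like class, 25 of the 43 genes were at least 2-fold higher in the granulosa-rich pool than in the granulosa-poor pool, and 11 were lower in it, among them Psma2, Psma7, Psmd1, Psmd11, Psme3 and Psme4. The matching share of all genes was not counted, so whether these counts are particular to the proteasome genes is unknown. The part that follicle-cell RNA has in the pooled ratios was not tested, so each ratio is followed by its value without the granulosa-rich libraries where the 2 differ by more than 1.5-fold.

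**Figure D1:**
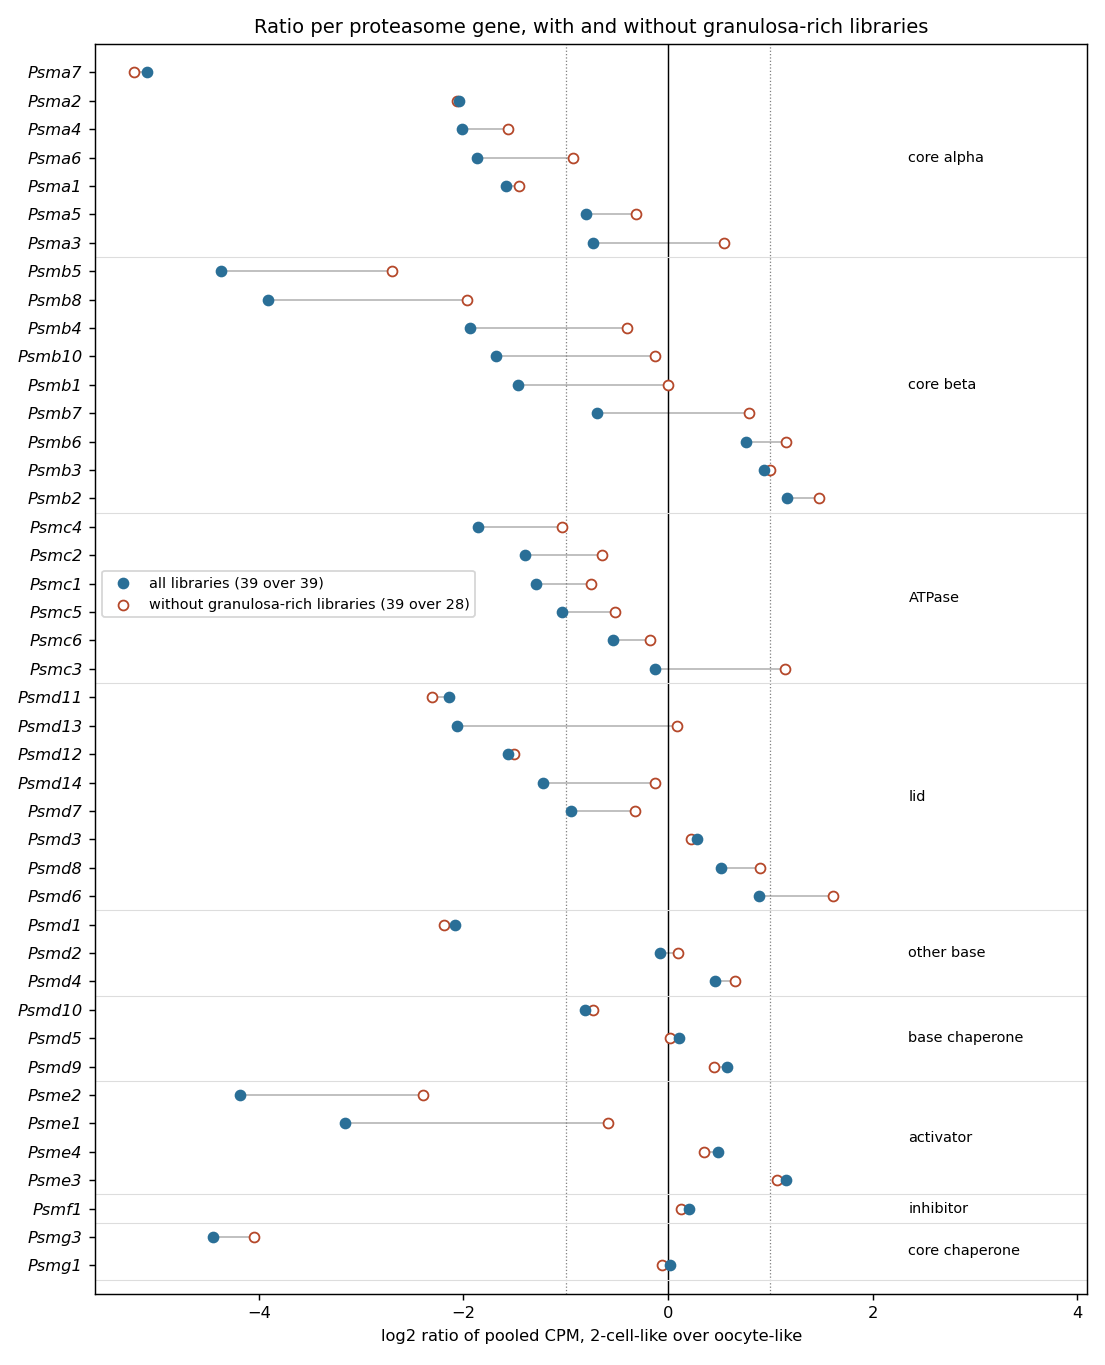
Log2 ratio of pooled CPM, 2-cell-like over oocyte-like, for the 43 proteasome genes compared, ordered by group. Filled points use all libraries (39 over 39), open points leave out the 11 granulosa-rich ones (39 over 28), and dotted lines mark 2-fold; Psma7 stayed near -5 in both, while Psmd13 lay at -2.06 with and 0.092 without them.

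Psma7, an alpha ring subunit, had the largest difference of all proteasome genes. It ranged from 0 to 159 CPM (median 15.4) in 2-cell-like libraries and from 189 to 2736 CPM (median 746) in oocyte-like libraries. Each of the 39 2-cell-like libraries lay below each of the 39 oocyte-like ones, which 0.289% of all genes compared did in this direction. The pooled level was 29.1 CPM in the 2-cell-like pool against 994 CPM in the oocyte-like pool, 34.2-fold lower (95% interval 32.7 to 35.8). Left out one at a time, no library brought the fold below 32.5 or above 42.6. The class medians lay apart whichever labels they were taken under. In 2-cell-like libraries Psma7 had medians of 15.4 CPM under the label mutant oocyte, 29.2 CPM under mutant 2-cell and 14.9 CPM under wild-type oocyte. In oocyte-like libraries the medians were 784 CPM under mutant 2-cell, 580.1 CPM under wild-type oocyte and 640.2 CPM under wild-type 2-cell. Psma8, which replaces Psma7 in the male germ line, was barely counted, at 0.0154 CPM in the 2-cell-like pool against 0.348 CPM in the oocyte-like pool, with a count in 1 of 39 and 5 of 39 libraries.

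All 7 core alpha genes compared were lower in the 2-cell-like pool, 5 of them at least 2-fold. Of all 9677 genes compared, 5066 were lower and 27.8% at least 2-fold lower. The alpha genes had a median log2 ratio of -1.87 (-1.46 without the granulosa-rich libraries). Their summed level, Psma8 included, was 557 CPM in the 2-cell-like pool against 2720 CPM in the oocyte-like pool, 4.88-fold lower. Psma2, an alpha ring subunit, had 0 to 1045 CPM (median 253) in 2-cell-like libraries and 525 to 2311 CPM (median 924) in oocyte-like libraries. Of the 2-cell-like libraries 37 of 39 lay below each oocyte-like one, and the other 2 were libraries 3 and 4, labelled wild-type oocyte. In the pools Psma2 was 4.11-fold lower (95% interval 4.05 to 4.18). Psma1, another ring subunit, had 0 to 371 CPM (median 79.6) in 2-cell-like and 24.6 to 547 CPM (median 236) in oocyte-like libraries. The classes overlapped, with 7 2-cell-like libraries below each oocyte-like one, and the pooled level was 2.99-fold lower (95% interval 2.90 to 3.08).

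Psma4, another alpha ring subunit, had 0 to 122 CPM (median 0.580) in 2-cell-like libraries and 12.3 to 275 CPM (median 43.1) in oocyte-like libraries. It had no count in 19 of 39 2-cell-like and in 0 of 39 oocyte-like libraries, and was 4.03-fold lower (95% interval 3.76 to 4.32). Its difference was uneven between labels: the log2 ratio was -2.90 within the label wild-type oocyte and -0.39 within mutant 2-cell. Psma6 was 3.66-fold lower (95% interval 3.43 to 3.90), at 17.4 CPM in the 2-cell-like pool against 63.6 CPM in the oocyte-like pool, and its log2 ratio of -1.87 was -0.93 without the granulosa-rich libraries. Psma5 and Psma3 were within 2-fold, with log2 ratios of -0.81 and -0.73. Psma3 had the ratio nearest to 1 of the group, and without the granulosa-rich libraries its log2 ratio had the other sign, 0.55: its pooled level was 292 CPM in granulosa-rich and 43.0 CPM in granulosa-poor oocyte-like libraries.

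**Figure D2:**
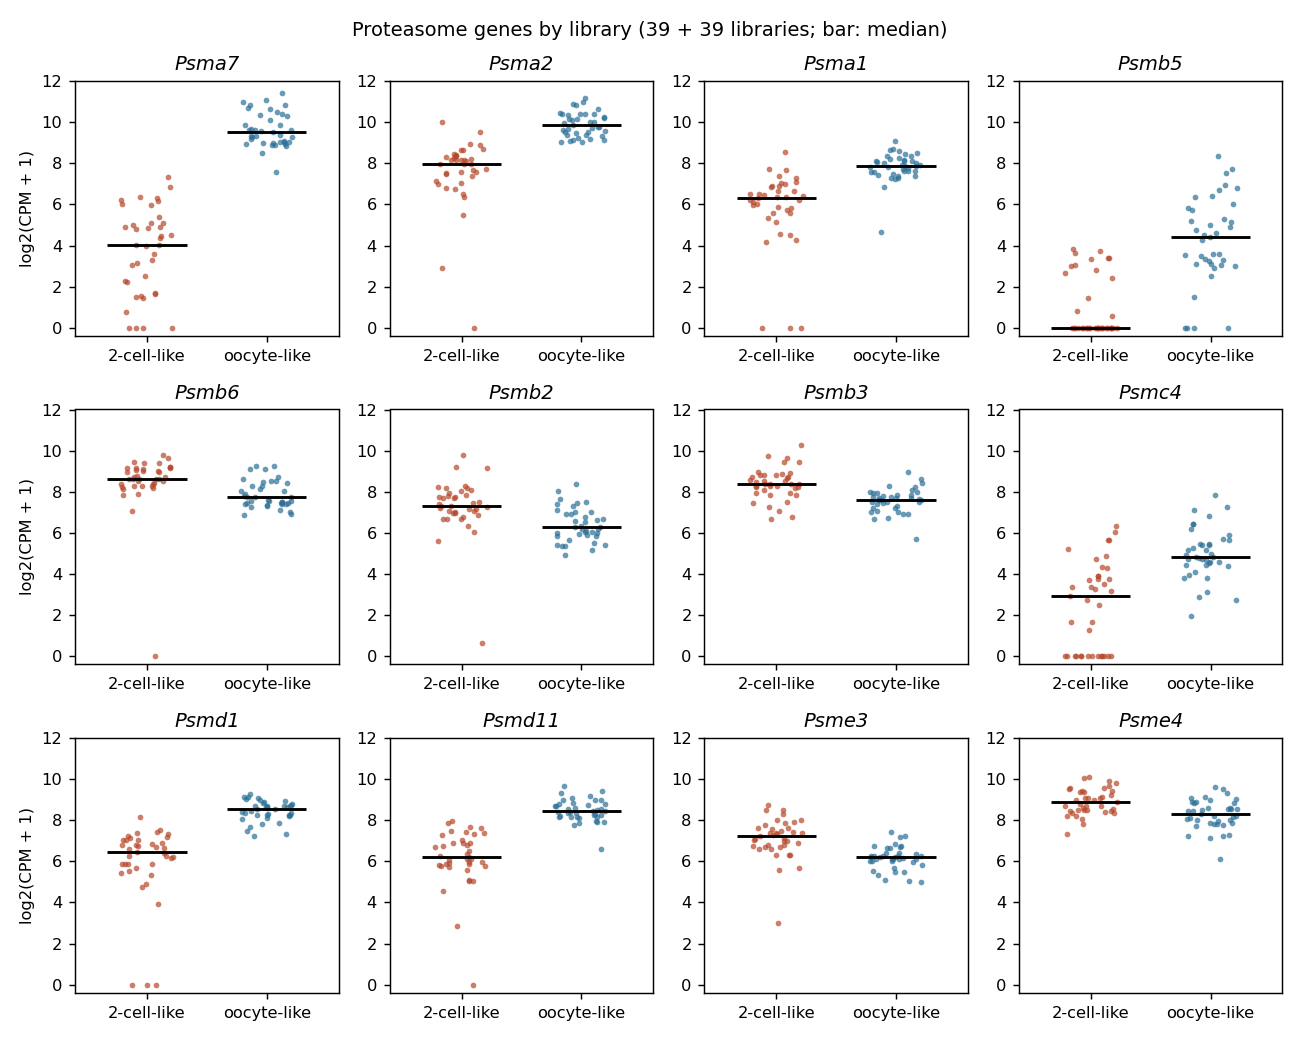
Log2(CPM + 1) of 12 proteasome genes in single libraries, 39 2-cell-like (left of each panel) and 39 oocyte-like (right), each point 1 library and each bar the median. Psma7 shows no overlap between the classes, and Psmb2, Psmb3, Psmb6, Psme3 and Psme4 have the higher median in the 2-cell-like class.

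The core beta genes did not move as a group. Of 9 compared, 5 were at least 2-fold lower and 1 at least 2-fold higher (27.8% and 20.9% of all genes), and 3 were within 2-fold. The median log2 ratio of -1.47 was 0.79 without the granulosa-rich libraries, with 7 compared. Their summed level was 1144 CPM in the 2-cell-like pool against 864 CPM in the oocyte-like pool, 1.32-fold higher, opposite to the alpha genes. Psmb2, a structural beta subunit, had 0.548 to 881 CPM (median 158) in 2-cell-like libraries and 29.1 to 330.3 CPM (median 77.1) in oocyte-like libraries. The pooled level was 2.24-fold higher (95% interval 2.18 to 2.30), the classes overlapped, and the fold was 1.96 without library 4. Psmb3, also structural, had 99.9 to 1255 CPM (median 335) in 2-cell-like and 50.2 to 498 CPM (median 196) in oocyte-like libraries. Its quartile ranges lay apart though the pooled ratio stayed under 2, at 1.91-fold higher (95% interval 1.88 to 1.95).

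The 3 constitutive catalytic genes differed from each other. Psmb6, which cuts after acidic residues, had 0 to 876 CPM (median 398) in 2-cell-like and 116 to 612 CPM (median 211) in oocyte-like libraries and was 1.69-fold higher (95% interval 1.67 to 1.72). Psmb5, which cuts after bulky hydrophobic residues, was in the other direction: it had 0 to 13.2 CPM (median 0) in 2-cell-like and 0 to 321 CPM (median 20.7) in oocyte-like libraries. No count of Psmb5 was present in 25 of 39 2-cell-like libraries and 4 of 39 oocyte-like ones, and 21 oocyte-like libraries lay above each 2-cell-like one. The pooled level was 2.25 CPM in the 2-cell-like pool against 46.4 CPM in the oocyte-like pool, 20.6-fold lower (95% interval 17.5 to 24.5). In oocyte-like libraries Psmb5 stood at 143 CPM in the granulosa-rich pool and 14.6 CPM in the granulosa-poor pool, and its log2 ratio of -4.37 was -2.70 without the granulosa-rich libraries. Psmb7, which cuts after basic residues, was 1.62-fold lower (95% interval 1.53 to 1.73), with a log2 ratio of -0.70 that was 0.79 without them. Psmb1 and Psmb4, both structural, were 2.77-fold lower (95% interval 2.66 to 2.88) and 3.82-fold lower (95% interval 3.60 to 4.06). Their log2 ratios of -1.47 and -1.93 were -0.0016 and -0.40 without the granulosa-rich libraries.

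Promoter sequences of Psma7, Psmb5, Psmb6 and Psme3 are shown because these genes differ in opposite directions. The sequences are the 250 bases before the annotated start, from RefSeq on build GRCm38.p6, while the counts were made on GRCm39. Promoters were found for 41 of 49 proteasome genes, not for Psmb2, which had the highest ratio, and capitals mark a match. The motif TGACNNNGC, the core of the antioxidant response element that Nfe2l1, an inducer of proteasome genes, is known to bind with its partners, was searched on both strands, as was CCAAT, the box bound by the factor NF-Y. The Psma7 promoter (chr2:180042465-180042714, minus strand) has CCAAT, Psmb5 (chr14:54617996-54618245, minus strand) and Psmb6 (chr11:70525107-70525356, plus strand) have TGACNNNGC, and Psme3 (chr11:101315963-101316212, plus strand), an activator gene, has CCAAT on the opposite strand, where it reads ATTGG.
Psma7: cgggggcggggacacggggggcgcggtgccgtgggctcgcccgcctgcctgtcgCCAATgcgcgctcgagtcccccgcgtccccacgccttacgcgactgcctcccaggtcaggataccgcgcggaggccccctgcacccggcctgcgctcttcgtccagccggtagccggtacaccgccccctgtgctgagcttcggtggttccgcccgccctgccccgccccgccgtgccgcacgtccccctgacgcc
Psmb5: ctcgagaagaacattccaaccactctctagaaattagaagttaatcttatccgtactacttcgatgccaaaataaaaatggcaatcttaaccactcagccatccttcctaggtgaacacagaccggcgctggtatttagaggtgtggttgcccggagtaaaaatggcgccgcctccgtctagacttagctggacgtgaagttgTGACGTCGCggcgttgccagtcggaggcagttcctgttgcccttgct
Psmb6: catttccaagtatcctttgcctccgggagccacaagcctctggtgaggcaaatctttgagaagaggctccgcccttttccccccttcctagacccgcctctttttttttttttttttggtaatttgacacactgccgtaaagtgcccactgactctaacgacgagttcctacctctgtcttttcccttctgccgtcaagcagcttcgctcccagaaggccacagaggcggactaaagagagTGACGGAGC
Psme3: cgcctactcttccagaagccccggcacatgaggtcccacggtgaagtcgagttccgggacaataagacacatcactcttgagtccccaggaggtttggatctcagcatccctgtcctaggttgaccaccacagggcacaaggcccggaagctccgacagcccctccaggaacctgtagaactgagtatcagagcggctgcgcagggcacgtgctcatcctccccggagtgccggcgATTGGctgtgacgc
TGACNNNGC was present in any listed promoter of 5 of 41 proteasome genes (12.2%, namely Psmb5, Psmb6, Psmc6, Psmd9 and Psmd12). It was present in that way in 11.5% of all 27025 genes with a promoter and in 14.2% of the 7455 genes compared that have one. CCAAT was present in 14 of 41 (34.1%), beside 37.5% and 41.6%. Psmb5, far lower in the 2-cell-like pool, and Psmb6, higher in it, both hold TGACNNNGC, and Psma7 and Psme3, which differ in opposite directions, both hold CCAAT. The sequence TTTTAT or TTTTAAT, known as a cytoplasmic polyadenylation element, occurred in the last 100 bases of 6 of 49 proteasome transcripts (12.2%; GENCODE M21) and of 20.5% of the genes compared. A match is only a run of letters and was not tested as a site.

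The immunoproteasome genes, the catalytic subunits that interferon induces in place of the constitutive ones, were low in both classes. Psmb8 had a count in 3 of 39 2-cell-like and 25 of 39 oocyte-like libraries, at 0.693 CPM in the 2-cell-like pool against 10.4 CPM in the oocyte-like pool, 15.0-fold lower (95% interval 11.2 to 20.7). That oocyte-like level lies close to the 10 CPM filter, and Psmb8 falls below it without any of 4 granulosa-rich libraries (17, 59, 60 or 61), while the fold was 31.1 without library 47. Its log2 ratio of -3.91 was -1.96 without the granulosa-rich libraries. Psmb9 was at 0.678 CPM in the 2-cell-like pool against 2.48 CPM in the oocyte-like pool, under the filter. Psmb10 was at 3.79 CPM in the 2-cell-like pool against 12.1 CPM in the oocyte-like pool, 3.20-fold lower (95% interval 2.79 to 3.68); its log2 ratio was -0.12 without the granulosa-rich libraries, and without library 36 its fold was 5.04. Psmb11, the subunit of the thymus, had 0.555 CPM and 0.581 CPM, with no count in 34 of 39 and 34 of 39 libraries.

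Psme1 and Psme2, the heteromeric activator that pairs with the immunoproteasome, were the activator genes with the lowest ratios among the 4 compared. Psme2 had a count in 11 of 39 2-cell-like and 36 of 39 oocyte-like libraries and was 18.1-fold lower (95% interval 15.5 to 21.4), at 2.40 CPM in the 2-cell-like pool against 43.6 CPM in the oocyte-like pool. The log2 ratio of -4.18 was -2.40 without the granulosa-rich libraries. Psme1 was 8.90-fold lower (95% interval 7.43 to 10.8), at 1.93 CPM in the 2-cell-like pool against 17.1 CPM in the oocyte-like pool, with a log2 ratio of -3.15 that was -0.58 without the granulosa-rich libraries. Psme2b, a near-identical copy of Psme2, shares reads with it and their split is uncertain; it was under the filter, at 0.478 CPM in the 2-cell-like pool against 9.60 CPM in the oocyte-like pool. Summed, Psmb8, Psmb9, Psmb10, Psme1 and Psme2 reached 9.49 CPM in the 2-cell-like pool against 85.8 CPM in the oocyte-like pool. Within the oocyte-like class that sum was 277 CPM in the 11 granulosa-rich and 22.8 CPM in the 28 granulosa-poor libraries, the same division by which Psma2 stood at 1038 and 1123 CPM. The library of neither class, number 86, labelled mutant 2-cell, had no Mos and a granulosa marker share of 0.590%. It also carried 370.2 CPM of Psme2, 99.4 CPM of Psmb8, 245 CPM of Psmb5 and 675 CPM of Psma7, with a summed proteasome level of 12820 CPM.

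**Figure D3:**
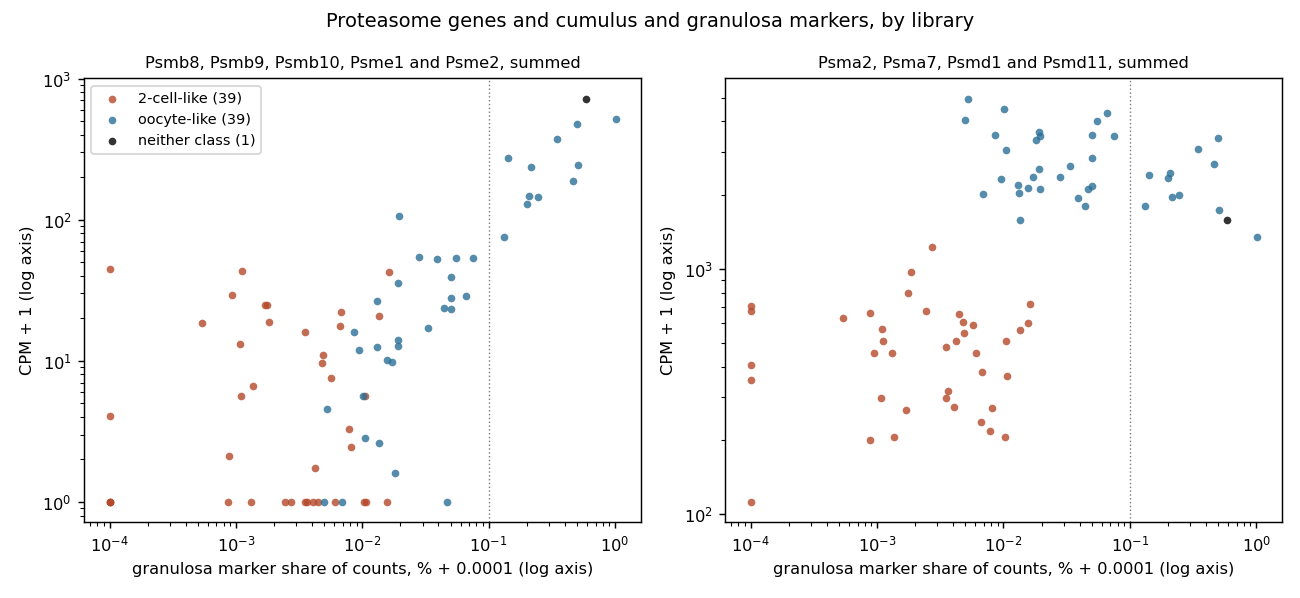
Summed CPM + 1 in single libraries against the share of counts in 17 cumulus and granulosa markers (% + 0.0001), both on log axes, with the 0.1% line dotted. The left panel sums Psmb8, Psmb9, Psmb10, Psme1 and Psme2, which reach at least 74.6 CPM in the 11 oocyte-like libraries right of the line and at most 105 CPM in the 28 left of it; the right panel sums Psma2, Psma7, Psmd1 and Psmd11, chosen after their values were seen, which stand above every 2-cell-like library on both sides of the line.

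Psme3, the nuclear activator that acts without ubiquitin, was the other proteasome gene at least 2-fold higher. It had 7.12 to 429 CPM (median 151) in 2-cell-like and 30.8 to 171 CPM (median 72.3) in oocyte-like libraries, with quartile ranges apart, and was 2.23-fold higher (95% interval 2.17 to 2.29). The difference was smaller within the label mutant 2-cell, where the log2 ratio was 0.64, than within wild-type oocyte, where it was 1.35. Psme4, the large activator known for its role with acetylated histones in male germ cells, had 162 to 1107 CPM (median 477) in 2-cell-like and 67.7 to 776 CPM (median 314) in oocyte-like libraries. It was 1.40-fold higher (95% interval 1.38 to 1.42) with wide overlap. Of 4 activator genes compared, 1 was at least 2-fold higher and 2 lower (20.9% and 27.8% of all genes), and 1 was within. The median log2 ratio was -1.33, or 0.35 over 3 genes without the granulosa-rich libraries. Psmf1, an inhibitor of the core in the test tube, was 1.15-fold higher (95% interval 1.11 to 1.19), and below 1, at -0.015 on the log2 scale, with TMM-scaled library sizes. Without library 31 it was -0.013, and it was also below 1 within the labels wild-type oocyte, at -1.34, and mutant 2-cell, at -0.095. The TMM scaling shifts the median log2 ratio of all genes by -0.24, and under it Psmb2 and Psme3 were both within 2-fold, at 0.94, while Psma5, Psmd7 and Psmd10 passed 2-fold on the lower side, at -1.03, -1.16 and -1.04.

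All 6 ATPase genes had a ratio below 1, with a median log2 ratio of -1.16 (-0.58 without the granulosa-rich libraries), and 4 of 6 were at least 2-fold lower. Of all 9677 genes compared, 5066 were below 1 and 27.8% at least 2-fold lower. Psmc4 was the lowest of the 6 ATPase genes. It had 0 to 80.4 CPM (median 6.53) in 2-cell-like libraries and 2.85 to 226 CPM (median 27.4) in oocyte-like libraries, with 17 of 39 2-cell-like libraries below each oocyte-like one. In the pools Psmc4 was 3.63-fold lower (95% interval 3.37 to 3.91), and its log2 ratio of -1.86 was -1.04 without the granulosa-rich libraries. Psmc2 and Psmc1 were 2.64-fold lower (95% interval 2.43 to 2.86) and 2.45-fold lower (95% interval 2.30 to 2.60). Their log2 ratios of -1.40 and -1.29 were -0.65 and -0.75 without those libraries. Psmc5 was 2.05-fold lower (95% interval 1.94 to 2.16), a value so near the limit that leaving out any of 7 libraries (36, 38, 41, 43, 55, 61 or 88) put it within 2-fold. Psmc6 was within 2-fold, at -0.53 on the log2 scale. Psmc3 was nearest to 1, at -0.13, and at 1.14 without the granulosa-rich libraries, on the higher side of 2-fold. Without library 61 alone it was 0.23.

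Of 8 lid genes, 4 were at least 2-fold lower and 0 at least 2-fold higher (27.8% and 20.9% of all genes). Their median log2 ratio was -1.09 (-0.13 over 7 genes without the granulosa-rich libraries). Psmd11, a scaffold subunit that braces the lid against the core, had 0 to 248 CPM (median 72.9) in 2-cell-like and 95.1 to 801 CPM (median 346) in oocyte-like libraries. Of the oocyte-like libraries 33 of 39 lay above each 2-cell-like one. The pooled level of Psmd11 was 4.41-fold lower (95% interval 4.29 to 4.53), and the log2 ratio was -2.21 within the label wild-type oocyte, -2.08 within mutant 2-cell and -2.31 without the granulosa-rich libraries. Psmd12, a structural lid subunit, had 0 to 143 CPM (median 18.4) in 2-cell-like and 12.3 to 124 CPM (median 63.4) in oocyte-like libraries and was 2.96-fold lower (95% interval 2.80 to 3.13). Its log2 ratio was -0.71 within the label wild-type oocyte and -1.39 within mutant 2-cell.

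Psmd13, another structural lid subunit, was 4.17-fold lower (95% interval 3.70 to 4.72), but it had no count in 31 of 39 2-cell-like libraries and reached 129 CPM in library 81. Its fold was 7.64 without library 81, and its log2 ratio was 0.092 without the granulosa-rich libraries. Psmd14, the deubiquitinase of the lid, was 2.34-fold lower (95% interval 2.16 to 2.53), at 12.1 CPM in the 2-cell-like pool against 28.4 CPM in the oocyte-like pool; without library 17 it was within 2-fold, and without the granulosa-rich libraries its log2 ratio was -0.13. Psmd7, the partner of Psmd14, had a log2 ratio of -0.94, just inside 2-fold, which it passed without library 8, and -0.32 without the granulosa-rich libraries. Psmd6 was the lid gene with the highest ratio, 1.86-fold higher (95% interval 1.78 to 1.94), and its log2 ratio of 0.89 was 1.61 without the granulosa-rich libraries. Psmd3 and Psmd8 were also above 1, at 0.28 and 0.52 on the log2 scale.

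Psmd1, the large scaffold of the base, had 0 to 284 CPM (median 86.1) in 2-cell-like and 149 to 627 CPM (median 375) in oocyte-like libraries. Of the 2-cell-like libraries 34 of 39 lay below each oocyte-like one, and the pooled level was 4.23-fold lower (95% interval 4.11 to 4.35). Its partner scaffold Psmd2 was at 93.5 CPM in the 2-cell-like pool against 98.9 CPM in the oocyte-like pool, 1.06-fold lower (95% interval 1.03 to 1.09), with a log2 ratio of 0.094 without the granulosa-rich libraries and 0.18 within the label wild-type oocyte. The ubiquitin receptor Psmd4 was 1.37-fold higher (95% interval 1.34 to 1.40). Among the base assembly chaperones none passed 2-fold: Psmd10, also known as gankyrin, was 1.76-fold lower (95% interval 1.66 to 1.87), Psmd5 was 1.08-fold higher (95% interval 1.05 to 1.11) and Psmd9 was 1.49-fold higher (95% interval 1.45 to 1.52). The core assembly chaperones were split. Psmg1 was near even, at 107 CPM in the 2-cell-like pool against 105 CPM in the oocyte-like pool, with a log2 ratio of 0.020. The ratios of Psmd5 and Psmg1 change sides with the scaling, to -0.11 and -0.20 with TMM and to -0.013 and -0.10 with DESeq2 size factors. Psmg1 was also below 1 without the granulosa-rich libraries, at -0.060, without library 31, at -0.17, and within the labels wild-type oocyte, at -0.12, and mutant 2-cell, at -1.13. Psmg3 was 21.9-fold lower (95% interval 16.7 to 29.1), at 0.848 CPM in the 2-cell-like pool against 18.5 CPM in the oocyte-like pool, with no count in 35 of 39 2-cell-like and 2 of 39 oocyte-like libraries, and 34.8-fold lower without library 5. Psmg2, the partner of Psmg1, and Psmg4, the partner of Psmg3, were under the filter. Psmg2 stood at 12.2 CPM in the 2-cell-like pool against 6.57 CPM in the oocyte-like pool and Psmg4 at 8.74 CPM in the 2-cell-like pool against 6.64 CPM in the oocyte-like pool.

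Set per length of transcript, as pooled CPM per kilobase, the genes of the core covered a wider range in the 2-cell-like class. The 14 constitutive core genes ranged from 2.50 CPM per kilobase for Psmb5 to 553 for Psmb6 in the 2-cell-like pool, 221-fold. In the oocyte-like pool they ranged from 30.7 for Psmb7 to 1088 for Psma7, 35.4-fold, and without the granulosa-rich libraries from 10.9 to 1185 for the same genes, 109-fold. Psma7 held 31.8 CPM per kilobase in the 2-cell-like pool, below Psma1 at 72.7 and Psma2 at 92.0, while in the oocyte-like pool it stood above Psma1 at 217 and Psma2 at 378. The 6 ATPase genes stayed within 4.97-fold of each other in the 2-cell-like pool and 2.44-fold in the oocyte-like pool.

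**Figure D4:**
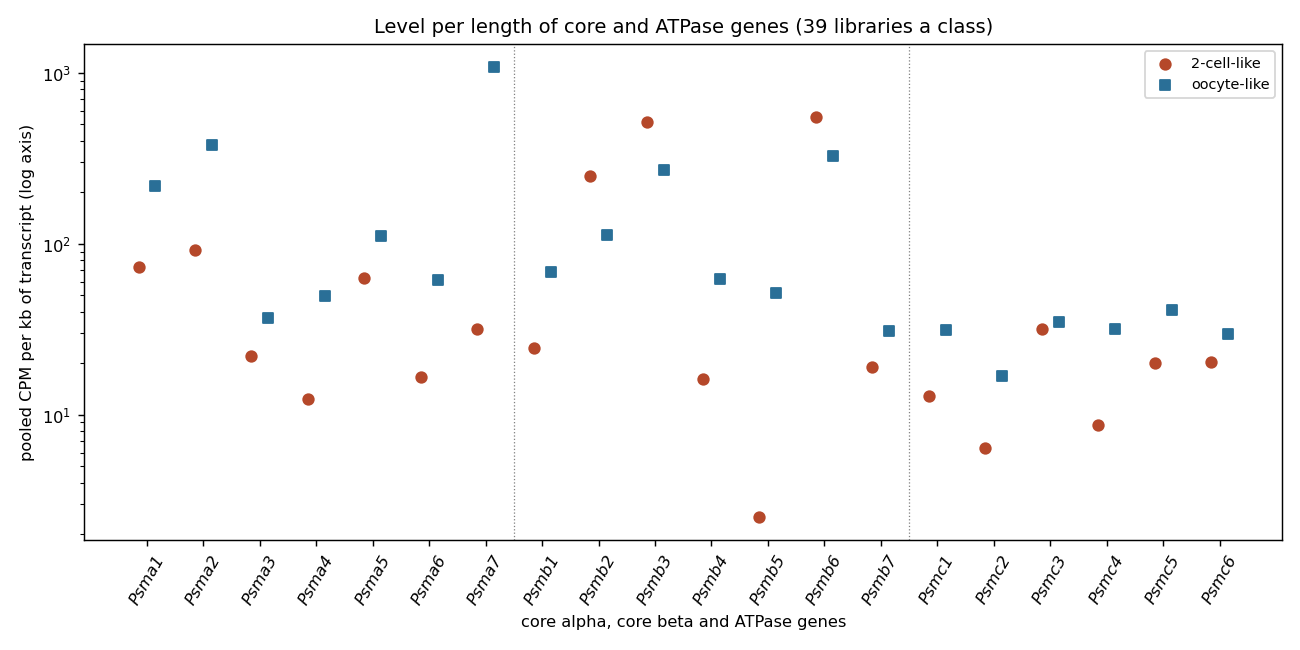
Pooled CPM per kilobase of transcript on a log axis for 7 alpha, 7 beta and 6 ATPase genes, in 39 2-cell-like (circles, left) and 39 oocyte-like libraries (squares, right). Psma7 is the highest square, and Psmb5 the lowest circle at 2.50.

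Because the classes run across labels, the same ratio could be taken inside 2 labels with a genotype that hold libraries of both classes and share none: wild-type oocyte (7 2-cell-like over 12 oocyte-like) and mutant 2-cell (11 over 9). Within wild-type oocyte 20 of 41 proteasome genes compared were at least 2-fold lower and 4 at least 2-fold higher (33.9% and 22.6% of all genes). The median log2 ratio was -0.92, against -0.22 over all genes. Within mutant 2-cell it was 15 of 40 lower and 5 higher (26.2% and 30.6% of all genes), with a median of -0.16, against 0.093 over all genes. The granulosa-rich libraries were 2 of 12 oocyte-like libraries in wild-type oocyte and 1 of 9 in mutant 2-cell. Of the 43 genes, counted here whether or not they passed the filter inside a label, 21 were below 1 within both labels, 8 above 1 within both (Psmb2, Psmb3, Psmb6, Psmd4, Psmd6, Psmd8, Psme3 and Psme4), and 14 on opposite sides. How all genes divide in this way was not counted, so whether this division is particular to the proteasome genes is unknown. The alpha genes had medians of -1.76 and -1.10, the beta genes -1.27 and 0.64, the ATPase genes -1.68 and -0.87, and the lid genes -0.59 and 0.014. Psma7 had log2 ratios of -5.58 and -5.16, Psmd1 -2.64 and -2.06, and Psma2 -1.38 and -2.05. Psmb7 was on opposite sides, at -1.27 and 1.68. The label negative control also held both classes, with 2 2-cell-like over 4 oocyte-like libraries. There 18 of 41 proteasome genes were at least 2-fold lower and 4 at least 2-fold higher, beside 2711 lower and 2534 higher of all 9375 genes compared. The median log2 ratio of the proteasome genes was -0.38, against 0.050 over all genes.

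**Figure D5:**
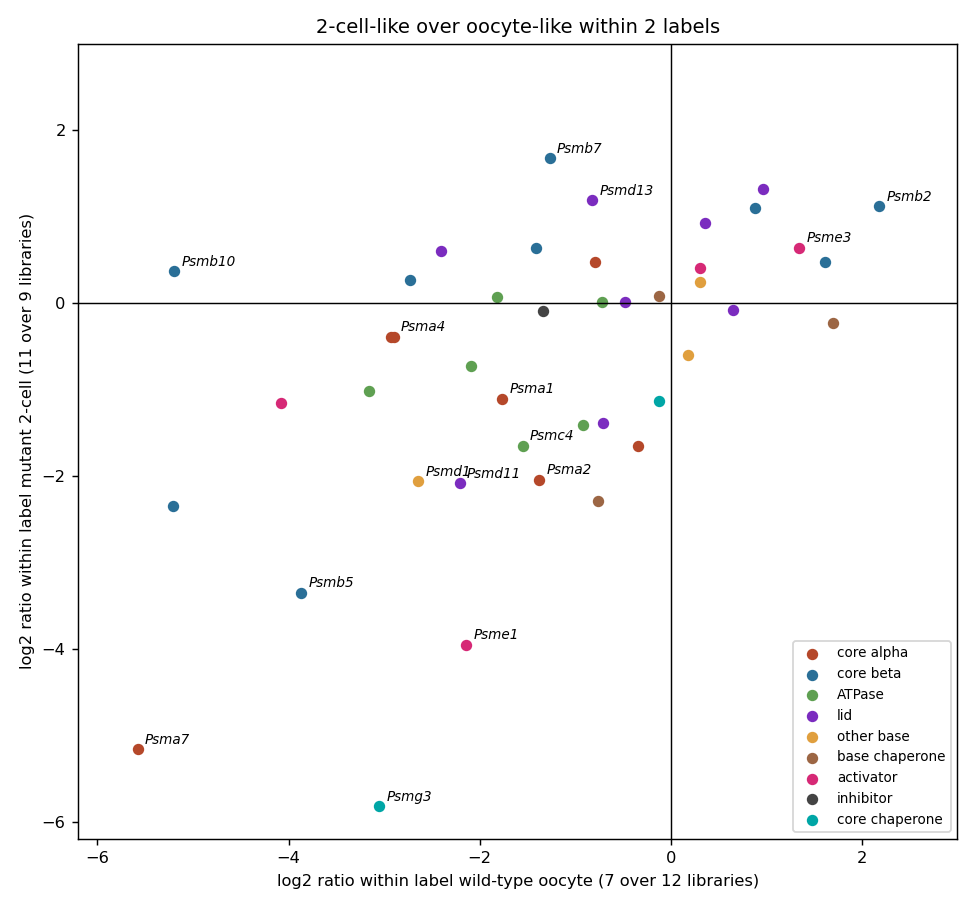
Log2 ratio of pooled CPM, 2-cell-like over oocyte-like, within the label wild-type oocyte (7 over 12 libraries, x axis) and within mutant 2-cell (11 over 9, y axis), for the 43 proteasome genes, coloured by group. Psma7 lies below -5 on both axes, and points in the upper left, such as Psmb10 and Psmb7, are lower within one label and higher within the other.

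The genotype labels were compared inside each class, which the design of the study asks for; these labels could not be checked. Among 2-cell-like libraries, 30 carried a mutant label and 7 a wild-type one, all 7 of them wild-type oocyte. The 30 join 2 genotypes, 19 labelled mutant oocyte (homozygous) and 11 labelled mutant 2-cell (maternal allele). Of 36 proteasome genes compared, 8 were higher by 2-fold or more and 4 lower by as much under a mutant label (18.6% and 6.32% of all genes), with a median log2 ratio of 0.18 over proteasome genes and 0.16 over all genes. The ATPase genes were above 1 in 6 of 6 cases and at least 2-fold higher in 4, with a median of 1.15. Of all 8549 genes compared there, 4999 were above 1. Taken apart, over the same 7 wild-type libraries, the homozygous label had 7 of 36 proteasome genes at least 2-fold higher and 5 lower (19.1% and 10.3% of all genes), with an ATPase median of 1.21 over 6 genes. The maternal-allele label had 10 of 35 higher and 4 lower (22.9% and 8.61% of all genes). Its ATPase median was 1.05 over the 4 compared, 3 of them above 1, beside 5117 of all 8544 genes. Set against each other, mutant 2-cell over mutant oocyte, 5 of 38 proteasome genes were at least 2-fold higher and 4 lower (18.4% and 12.3% of all genes), with an ATPase median of -0.52. Psmc1, the ATPase gene with the highest ratio over both mutant labels together, had 0 to 95.3 CPM (median 16.4) in mutant and 0 to 47.7 CPM (median 0) in wild type libraries, a log2 ratio of 2.15, and both sets held libraries without a count. Psma2 was lower, at 220.5 CPM in mutant against 517 CPM in wild type pools, and Psmb2 likewise, at 176 CPM in mutant against 383 CPM in wild type pools; the highest wild-type value of each is that of library 4. Psmf1 had a log2 ratio of 1.54. Psma7, at 32.9 CPM in mutant against 18.1 CPM in wild type, had a log2 ratio of 0.86.

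Among oocyte-like libraries, 9 carried a mutant label, all mutant 2-cell, and 26 a wild-type one, 14 of them wild-type 2-cell and 12 wild-type oocyte. Of 44 proteasome genes, 12 were at least 2-fold lower and 0 higher under the mutant label (15.8% and 0.429% of all genes), with a median log2 ratio of -0.48 against -0.049 over all genes. The 12 were Psma3, Psma6, Psmb1, Psmb4, Psmb5, Psmb7, Psmb8, Psmb10, Psmd13, Psme1, Psme2 and Psme2b. Granulosa-rich libraries were 1 of 9 mutant and 9 of 26 wild-type ones. Without them, 1 of 39 proteasome genes was at least 2-fold lower and 0 higher (2.84% and 0.834% of all genes), the median log2 ratio was 0.041, and the gene was Psmb4, at 13.9 CPM in mutant against 33.7 CPM in wild type pools. Psma7 was at 1331 CPM in mutant against 848 CPM in wild type and Psmd11 at 473 CPM in mutant against 365 CPM in wild type among all oocyte-like libraries. The 2 wild-type labels also differed. For wild-type 2-cell over wild-type oocyte, 6 of 45 proteasome genes were at least 2-fold higher and 0 lower (16.6% and 1.52% of all genes). The median log2 ratio was 0.32, and 0.88 over the ATPase genes, against 0.14 over all genes. Granulosa-rich libraries were 7 of 14 and 2 of 12.

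Taken by the stage labels as they stand, mutant over wild-type oocyte (19 over 19 libraries) sets 19 2-cell-like libraries against 7 2-cell-like and 12 oocyte-like ones, so genotype and RNA class cannot be told apart in it. There, 16 of 41 proteasome genes were at least 2-fold lower and 0 higher (22.7% and 16.8% of all genes). Psma7 was at 31.3 CPM in mutant against 663 CPM in wild type pools, with 0 to 159 CPM (median 15.4) in mutant and 0.694 to 2166 CPM (median 491) in wild type libraries. Among libraries labelled 2-cell (21 mutant over 14 wild-type), 8 of 45 were at least 2-fold lower and 0 higher (11.8% and 7.88% of all genes). Psma7 was at 865 CPM in mutant against 831 CPM in wild type pools, with 0 to 2736 CPM (median 115) in mutant and 359.7 to 1841 CPM (median 640.2) in wild type libraries. The mutant libraries of that label were 11 2-cell-like, 9 oocyte-like and 1 of neither class, and the wild-type ones 14 oocyte-like.

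Of 31 other genes that serve the proteasome, 30 were in the table and 29 were compared: 1 was higher and 7 were lower by 2-fold or more in the 2-cell-like pool, with a median log2 ratio of -0.44, beside 27.8% lower and 20.9% higher of all genes compared. Without the granulosa-rich libraries 5 of 28 were that much lower and 1 higher (21.9% and 26.1% of all genes), with a median of -0.13. The higher gene was Rad23b, a shuttle that carries ubiquitylated proteins to the proteasome, at 108 CPM in the 2-cell-like pool against 20.3 CPM in the oocyte-like pool, 5.29-fold higher (95% interval 5.05 to 5.55). Among the lower ones were Vcp, the segregase that unfolds ubiquitylated proteins, 4.12-fold lower (95% interval 3.86 to 4.40), the deubiquitinases Usp14, 2.04-fold lower (95% interval 1.91 to 2.18), and Uchl5, 2.43-fold lower (95% interval 2.22 to 2.67), the shuttle Ubqln2, 3.18-fold lower (95% interval 2.94 to 3.43), the ubiquitin-activating enzyme Uba6, 2.64-fold lower (95% interval 2.42 to 2.87), and Rps27a, which encodes ubiquitin fused to a ribosomal protein, 3.75-fold lower (95% interval 3.62 to 3.88). Without the granulosa-rich libraries the log2 ratio of Vcp was -1.20, against -2.04 with them, and those of Rps27a and Usp14 were -0.043 and -0.81, both within 2-fold. Usp14 was also within 2-fold when any of 17 single libraries was left out. Rps27a had a pooled level of 221 CPM in the oocyte-like class beside a median of 47.9 CPM over its libraries. Nfe2l1, the factor that induces proteasome genes when proteasome activity falls short, was even, at 101 CPM in the 2-cell-like pool against 100.2 CPM in the oocyte-like pool. Pomp, the core maturation factor, was at 38.0 CPM in the 2-cell-like pool against 51.7 CPM in the oocyte-like pool, with a log2 ratio of -0.44 that was 0.25 without the granulosa-rich libraries, and Ubb, a polyubiquitin gene, was at 585 CPM in the 2-cell-like pool against 445 CPM in the oocyte-like pool.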

How the data were processed

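Gene counts of 96 single-cell RNA libraries were analysed. The authors deposited raw counts, whole numbers per gene and library with no normalization. Reads were trimmed with Trim Galore 0.4.4 and aligned with HISAT2 2.1.0 to GRCm39, per the submitters' processing notes, which also name DESeq2; the counting tool and annotation are not given in the sources used here. Of 36983 table entries, 48 repeated a symbol and were summed, and 0 entries lacked a gene name.

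Pooled CPM per class, exact Poisson intervals of levels and exact conditional binomial 95% intervals of ratios were computed in Python 3.11.15 with pandas 2.3.3, numpy 2.4.6 and scipy 1.17.1; the calculation was tested on simulated data. A ratio of at least 2 counted as higher or lower. Where a class held no count of a gene, 3 counts over the class stood in as its floor. Transcript lengths came from GENCODE M21, the principal transcript of each gene. Doublets were not searched for, since 1 cell was picked per library, by the labels other than negative control.

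The classes were read from RNA: GEO's stage labels were used only for the comparisons that name them. Libraries labelled negative control were used when they passed the filters, and 17 libraries below them were left out. Every proteasome gene is accounted for. Those named with values were the ones at least 2-fold apart, with quartile ranges apart, at either end of a group's ratios, or belonging to the catalytic, immunoproteasome, activator, inhibitor and assembly genes; other members were named after their values were seen, as were genes singled out within labels. Alternatives were other normalizations (edgeR 4.0.16 TMM, DESeq2 1.42.0 size factors), pooling, thinning to 100000 counts, other gene, library and class limits, and leaving out single libraries, negative controls and granulosa-rich libraries. The class comparison inside each label, the mutant labels and the wild-type labels taken apart, and the values of other proteasome-serving genes and of levels per kilobase without granulosa-rich libraries were chosen after seeing the data. The members and lists were chosen with earlier results of these data known. The values of 1 gene of the list of other genes that serve the proteasome are not reported here.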

Additional observations from a re-analysis of the deposited data

Results flagged for a closer look

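Within groups of 4 to 10 libraries of 1 class and 1 label, summed levels of proteasome groups were searched for a library far from its nearest neighbour, relative to the range of the group (Dixon's 95% critical value). Of 18 such sets, 3 held one, where chance flags about 1 in 20 of independent sets. These sets share libraries, and library 87 was flagged more than once, so no excess over chance can be read from the count. All 3 flags were among the 9 oocyte-like libraries labelled mutant 2-cell. Library 87 stood above the other 8 in the summed core beta level, at 1466 CPM, and in the summed ATPase level, at 754 CPM; its granulosa marker share of 0.511% was the highest of the 9. Library 89 stood below the other 8 in the summed lid level, at 611 CPM.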

How the results depend on the processing

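Psma7, Psma2, Psma1, Psmd1 and Psmd11 were at least 2-fold lower under each of the 13 alternatives to pooling, scaling, filters and classes, and the alpha median and the summed level kept their direction. Scaling moved the median log2 ratio of all genes from -0.078 by -0.24 (TMM) and -0.14 (DESeq2). The count of higher genes was 2, but 0 with TMM library sizes, 5 without granulosa-rich libraries and 5 at 1.5-fold, and 1 to 3 without single libraries (4 and 61). The count of lower genes was 22, but 11 with a gene minimum of 50 CPM and 11 without granulosa-rich libraries, and 19 to 23 without single libraries. The overall median of -1.03 was -0.33 at 50 CPM and -0.18 without granulosa-rich libraries. The beta median of -1.47 was -0.42 from medians over libraries, -0.28 when thinned, 0.76 at 50 CPM, 0.79 without granulosa-rich libraries and -0.40 with Mos of at least 500 CPM, and -1.70 to -0.41 without single libraries (-0.41 without library 61). The lid median of -1.09 was -0.33 at 50 CPM and -0.13 without granulosa-rich libraries. The activator median of -1.33, over 4 genes, was -3.37 with TMM, -3.28 with DESeq2 size factors, -2.83 from means over libraries, -0.72 from medians, 0.65 when thinned, -3.15 with no gene minimum, 0.82 at 50 CPM, 0.35 without granulosa-rich libraries, and -3.22 (without library 24) to -1.12 without single libraries. The log2 ratio of Psmd13 was 0.092 without granulosa-rich libraries. For mutant over wild type, the median of 0.18 in 2-cell-like libraries was -0.063 at 50 CPM, and that of -0.48 in oocyte-like libraries was 0.041 without granulosa-rich ones. Among libraries labelled oocyte, the median of -0.60 was -0.12 when thinned, 0.057 at 50 CPM, 0.044 without granulosa-rich libraries, and -0.78 to -0.050 without single libraries (-0.050 without library 17). Stricter gene minimums test fewer genes. Leaving out single libraries also changed which genes were compared. Without library 61, Psmb8 and Psmb10 dropped out of the beta genes compared, and the beta median was then the value of Psmb7. Without library 24, Psme2b joined the activator genes compared. A median over few genes moves when genes enter or leave. The cause of the other shifts was not tested. No paired analysis was possible because the labels name no animal.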
